A study of Mus musculus with 4 samples.

Results

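Replication-dependent histone genes encode the proteins that package newly made DNA. Their members were taken as the genes whose symbol begins with Hist1h, Hist2h, Hist3h or Hist4h, which gave 69 of the 21090 genes measured. By symbol, 6 belong to class H1, 19 to H2A, 19 to H2B, 12 to H3 and 13 to H4. H1 is the linker histone, which binds DNA where it enters and leaves the nucleosome. The others are the core histones, around which the DNA is wound. In the annotation, Hist1h2al of H2A and Hist3h2bb-ps of H2B are pseudogenes without a coding sequence, and the rest are coding members. All members were read from RNA sequencing (RNA-seq) libraries of 4 lines of mouse mammary tumor cells, each line sequenced as 1 library. The lines come from a primary tumor of a mouse in which MMTV-Cre, expressed in mammary epithelium, had switched on Pik3ca H1047R and Trp53 R270H, so controls and knockouts share both alleles. Controls were unedited parental cells and vector control cells (n = 2), and the knockout group held lines edited with Cas9 in exon 3 or exon 2 of S100a4 (n = 2), which encodes a small calcium-binding protein.

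The lentiviral lines were selected with puromycin, and the methods do not say that they were single clones. Library titles name the cells 307 for both controls and the line edited in exon 3, and 308 for the line edited in exon 2. The study describes a single starting line, so whether the exon 2 line shares its starting cells with the others is not settled by the titles, and a difference of starting cells cannot be told apart from one between the knockouts. No library has a second culture of the same line, so every p-value below measures the spread between lines of a group. Values are RPKM, the reads per kilobase of coding length scaled to the library total. S100a4 itself stood at 3576 RPKM for the parental line and 4741 for the vector control, and at 1136 after exon 3 editing and 1105 after exon 2 editing. The library totals behind the RPKM values lay between 22472024 and 31235456 reads. Of the epithelial markers, Krt8 was at 27.5 to 78.9 RPKM, whereas Epcam and Cdh1 did not pass 0.657 RPKM in any library. The mesenchymal marker Vim was at 1362 to 2418 RPKM. Of the immune markers, Ptprc, which marks leukocytes, was at most 0.0101 RPKM, and Cd3e was at 0 in every library. Cd68 went the other way, at 4.92 RPKM for the parental line and 3.36 for the vector control. It was at 11.5 RPKM after exon 3 editing and 13.2 after exon 2 editing.

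Histone transcripts of this family are made in S phase. Unlike other mRNAs, most of them end in a short stem-loop after the stop codon instead of a poly(A) tail, and the stem-loop binding protein Slbp and the U7 snRNP direct the cut that forms this end. A few members also give polyadenylated transcripts that extend past the stem-loop, in particular in cells that have stopped dividing, and a library that selects poly(A) RNA recovers those more readily than the stem-loop form. Per the sample labels the kit was for stranded libraries of total RNA, whereas the study's methods name an RNA sample preparation kit. Which of them applied to these libraries was not tested. A list of 5 members known to give polyadenylated transcripts was therefore kept apart: Hist1h1c (H1), Hist3h2a (H2A), Hist1h2bc and Hist2h2be (H2B) and Hist4h4 (H4).

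The stem-loop is the feature that defines the family at the RNA level, and it is shown for the leading members of classes H1 and H2A, the 3 leading members of H4 and Hist4h4 of the poly(A) list. Each line gives the transcript strand, 5′ to 3′, from the 3′ UTR in GENCODE M21 (GRCm38), with the 16 bases of the stem and loop in capitals.
Hist1h1c: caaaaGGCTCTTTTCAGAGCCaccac
Hist3h2a: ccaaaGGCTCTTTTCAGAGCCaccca
Hist1h4h: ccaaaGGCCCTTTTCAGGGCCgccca
Hist1h4i: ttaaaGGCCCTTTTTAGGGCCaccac
Hist2h4: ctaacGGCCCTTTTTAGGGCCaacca
Hist4h4: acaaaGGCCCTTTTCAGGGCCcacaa

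These stem-loops start 24 bases after the stop codon in Hist1h1c, 41 in Hist3h2a, 31 in Hist1h4h, 30 in Hist1h4i, 38 in Hist2h4 and 54 in Hist4h4. The search was for a 6-base stem beginning GG, a 4-base loop beginning TT and the reverse complement of the stem, on the transcript strand only. It found a match in 44 of the 50 coding members with at least 50 bases of annotated 3′ UTR, at 21 to 58 bases (median 31) from the stop codon. Among 18049 other genes with at least 100 bases of annotated 3′ UTR, 8 (0.0443%) had a match in the first 100 bases. The remaining 17 coding members have under 50 bases of 3′ UTR in the annotation, and none had a match there.

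The 44 stem-loops had 6 forms, which divided by class. The most frequent, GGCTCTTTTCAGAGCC, was present in 26 members (3 of class H1, 10 of H2A, 8 of H2B and 5 of H3). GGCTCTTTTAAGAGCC was found in 6 members of H1, H2B and H3, and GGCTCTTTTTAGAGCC in 1 member of H2A. The H4 genes had 3 forms of their own, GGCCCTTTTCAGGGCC in 7 members, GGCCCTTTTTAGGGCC in 2 and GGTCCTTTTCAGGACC in 2. No form was shared between H4 and another class.

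The annotated 3′ UTR was long in the poly(A) list, with 742 to 2515 bases (median 1700) against a median of 89.5 bases in the other coding members. The poly(A) signal, searched as AATAAA or ATTAAA on the transcript strand in the last 40 bases, was present in 4 of these 5 genes and in 17 of the 67 coding members, against 71.7% of the 18049 other genes. Those other genes all had at least 100 bases of annotated 3′ UTR. The 67 members include 17 with under 50 bases, so these shares are not like for like. Among the 5 members with a mean of at least 1 RPKM, 4 carried the signal, against 13 of the 62 coding members under 1 RPKM. The median of the mean RPKM was 0.233 for the 17 members with the signal and 0.0479 for the 50 without it. Members with under 50 bases of 3′ UTR are among the 62 and among the 50, which limits these comparisons too. Hist1h2bc, at a mean of 6.90 RPKM, had neither the signal nor a stem-loop in its annotated transcript of 2 exons, and Hist2h2be had the signal without a stem-loop. A match to these letters is a description of the annotation and does not show which end was used in these cells.

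**Figure D1:**
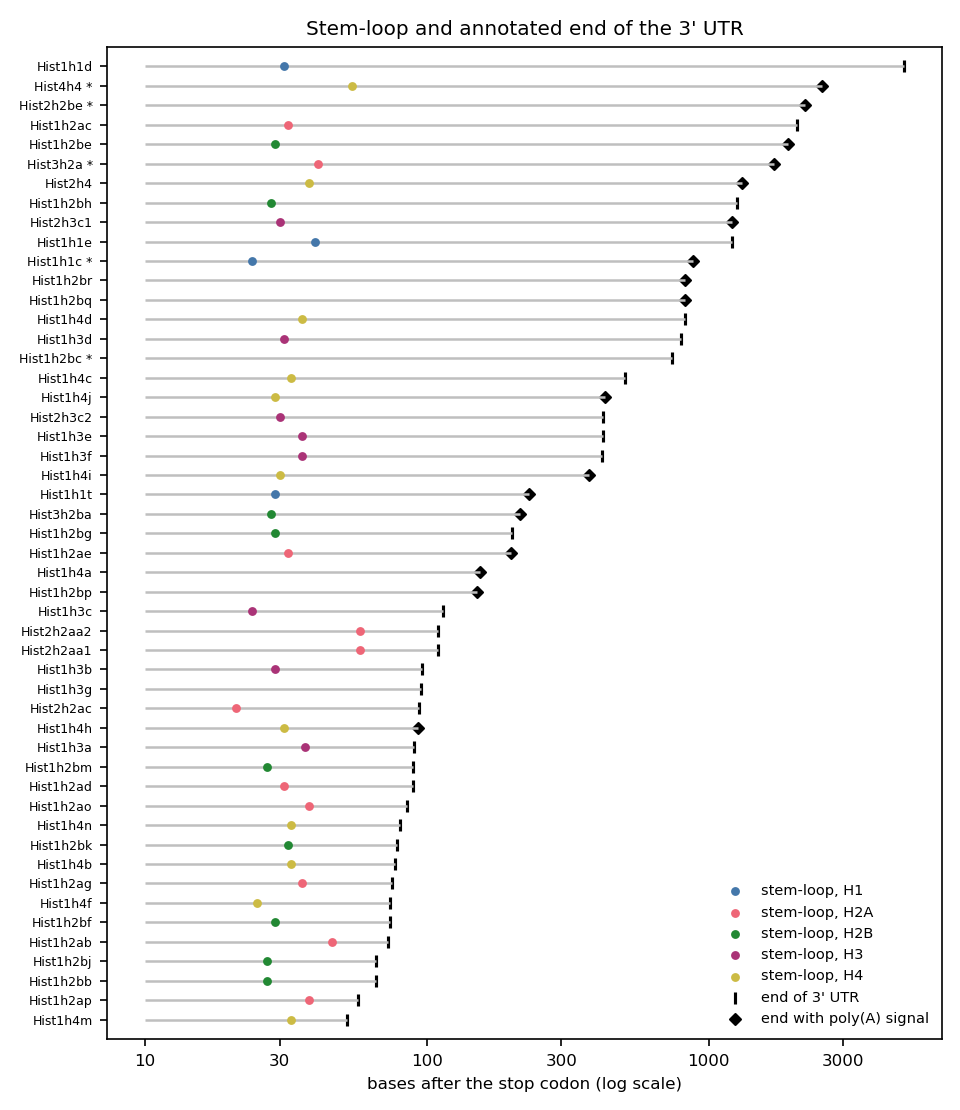
Each line is the annotated 3′ UTR of one coding member with at least 50 bases of it, drawn from 10 bases after the stop codon (horizontal axis, log scale) to its end. Dots mark the start of the stem-loop, coloured by class, diamonds an end with the poly(A) signal, bars an end without it, and asterisks the poly(A) list. The stem-loops drawn lie 21 to 58 bases from the stop codon whatever the length of the UTR. Hist1h2bp is drawn without one, as its stem-loop lies in another annotated transcript.

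Levels of the family were low for most of its members. Of the 69 genes, 21 were at 0 in all 4 libraries (30.4%, against 27.0% of all genes), 48 had reads in 1 library or more and 10 had reads in all 4. The 21 include the pseudogenes Hist1h2al and Hist3h2bb-ps. A mean of at least 1 RPKM was reached by 5 members (7.25%), against 51.5% of all genes. In total 2284 reads lay in the family over the 4 libraries, 63.9% of them in Hist1h1c and 85.2% in the 5 members of the poly(A) list. The 5 members at a mean of 1 RPKM or more were Hist1h1c, Hist1h2bc and Hist3h2a of the poly(A) list, with Hist1h4i and Hist1h4h from outside it. As the reads per member were few, the intervals below are 95% Poisson intervals, or exact binomial intervals for ratios, and cover counting error only.

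**Figure D2:**
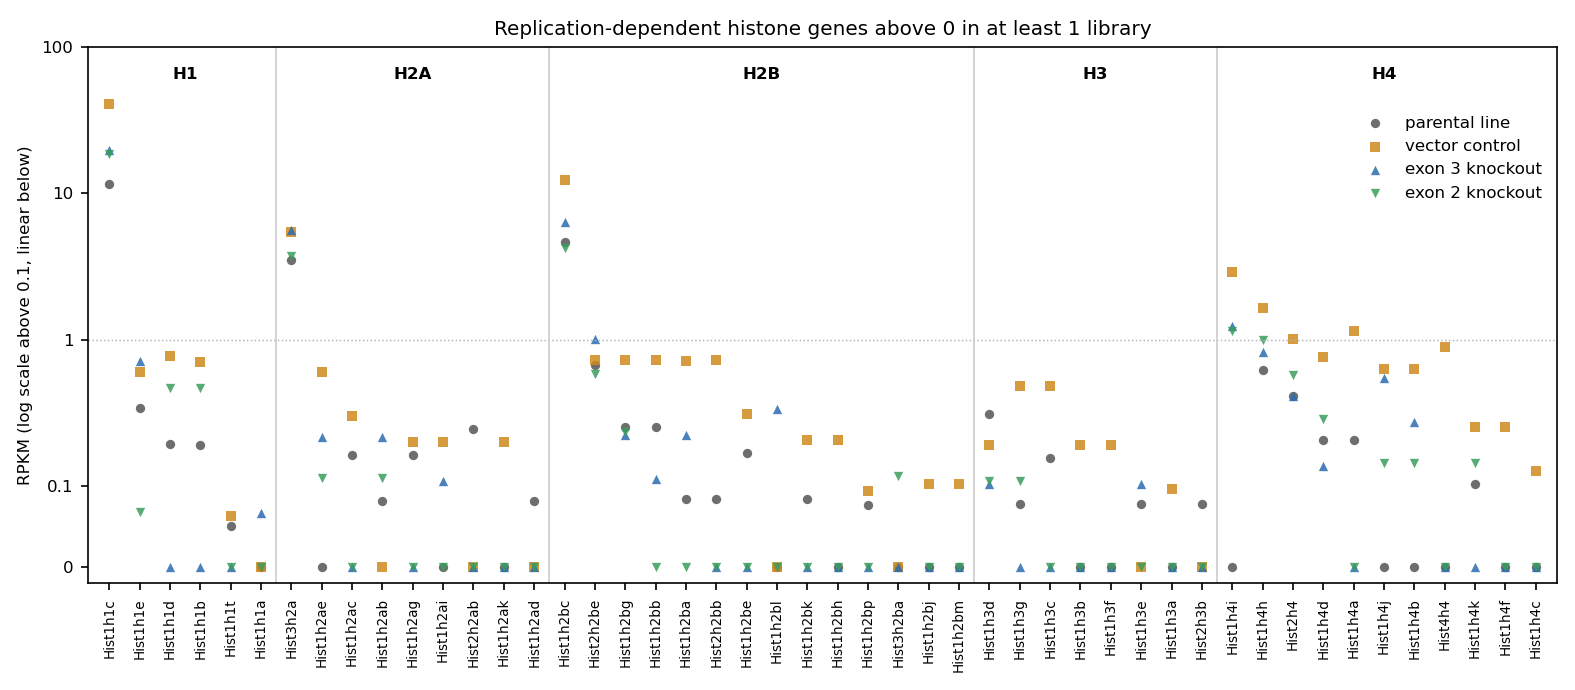
RPKM of the 48 members above 0 in at least 1 library (vertical axis, log scale above 0.1 and linear below), ordered by mean within each class, with 1 symbol per library. Hist1h1c, Hist1h2bc and Hist3h2a stand above 1 RPKM in all 4 libraries, and the vector control is the highest library in 36 of the 48.

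Class H1 was nearly a single gene. Hist1h1c (GRCm38 chromosome 13 from 23738808 to 23740367, plus strand, a coding gene of 639 coding bases) had an RPKM of 11.5 for the parental line (10.1 to 13.1, 230 reads) and 41.0 for the vector control (38.0 to 44.3, 666 reads), and of 19.8 after exon 3 editing (17.6 to 22.2, 297 reads) and 18.5 after exon 2 editing (16.4 to 20.9, 266 reads). Both knockouts lay between the controls, and the vector control was 3.56 times the parental line (interval 3.06 to 4.16). It made up 95.1% of the summed RPKM of its class and ranked 4381 of 21090 by mean RPKM. Hist1h1e, another somatic linker histone, was at 0.340, 0.597, 0.710 and 0.0674 RPKM for the parental line, vector control, exon 3 knockout and exon 2 knockout, from 7, 10, 11 and 1 reads. Hist1h1d, a somatic form as well, was at 0.192, 0.769, 0 and 0.468 RPKM in that order, from 4, 13, 0 and 7 reads. Neither gene kept its knockouts on one side of its controls. Hist1h1t, the linker histone of the testis, gave 1 read in each control and 0 in the knockouts.

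Class H2A was led by Hist3h2a (chromosome 11 from 58954685 to 58956830, plus strand). Its RPKM was 3.50 for the parental line (2.54 to 4.72, 43 reads) and 5.41 for the vector control (4.06 to 7.06, 54 reads), and 5.64 after exon 3 editing (4.21 to 7.39, 52 reads) and 3.74 after exon 2 editing (2.57 to 5.25, 33 reads). The groups overlapped. The vector control was 1.54 times the parental line (1.02 to 2.36), and the exon 2 knockout 0.663 times the exon 3 knockout (0.415 to 1.05). The annotation of Hist3h2a overlaps that of Trim17 on the same strand, so reads of the pair may be shared. Of the other 18 H2A genes, 10 were at 0 in all 4 libraries. Hist1h2ae gave 0, 6, 2 and 1 reads and Hist1h2ac 2, 3, 0 and 0 reads in the order used above. Hist1h2aa, a testis form with 100% of its windows unique, was at 0 in all 4 libraries, which allows up to 0.246 RPKM in the deepest of them.

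Class H2B was led by Hist1h2bc (chromosome 13 from 23684199 to 23692908, plus strand). Parental cells gave 4.62 RPKM (55 reads), vector control cells 12.4 (120 reads), exon 3 knockout cells 6.37 (57 reads) and exon 2 knockout cells 4.20 (36 reads). The vector control stood apart from the other 3 libraries, at 2.68 times the parental line (1.93 to 3.76). Hist2h2be, on chromosome 3 and also of the poly(A) list, was at 0.672, 0.723, 1.01 and 0.584 RPKM, from 8, 7, 9 and 5 reads. A difference within either group was not detectable at this depth (ratio 1.08, interval 0.332 to 3.40, for the controls and 0.580, interval 0.153 to 1.93, for the knockouts). Hist1h2bg gave 3, 7, 2 and 2 reads, and Hist1h2ba, the testis form, 1, 7, 2 and 0 reads.

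Class H3 held the fewest reads, with 9 from parental cells, 17 from vector control cells and 2 from either knockout over its 12 genes. No H3 gene reached a mean of 1 RPKM. Hist1h3d, at the head of the class, had a mean of 0.179 RPKM and gave 4, 2, 1 and 1 reads. Hist1h3g gave 1, 5, 0 and 1 reads and Hist1h3c 2, 5, 0 and 0 reads. The replication-independent H3 genes were higher, H3f3b at 219 to 317 RPKM and H3f3a, with 22.3% of its 75-base coding stretches unique, at 2.49 to 4.02 RPKM.

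In class H4, where all 13 genes encode an identical protein, Hist1h4i (chromosome 13 from 22040636 to 22041362, minus strand) had no read in the parental line. Parental cells gave 0 RPKM, vector control cells 2.90 (23 reads), exon 3 knockout cells 1.23 (9 reads) and exon 2 knockout cells 1.14 (8 reads). The vector control was at 9.43 times a floor of 3 reads in the parental library (0.308 RPKM). This ratio leaves out the counting error of the 23 reads. Hist1h4h was at 0.616, 1.64, 0.819 and 0.998 RPKM, from 6, 13, 6 and 7 reads. Of the 75-base stretches of these coding sequences, 40.8% in Hist1h4i and 30.3% in Hist1h4h occur nowhere else, so reads of other H4 genes may be among theirs or missing from them. Hist2h4, with all of its windows unique, was at 0.410, 1.01, 0.410 and 0.571 RPKM, from 4, 8, 3 and 4 reads. All 3 genes had their highest value in the vector control. Hist4h4, the only member on chromosome 6, was read in the vector control alone, with 7 reads. Its 0.883 RPKM was 2.87 times the parental floor, again without counting error.

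Many members share coding sequence, which bears on what a read count can hold. The 67 coding members encode 6 proteins in H1, 9 in H2A, 12 in H2B, 3 in H3 and 1 in H4. For every 75-base stretch of coding sequence, equal to 1 read of these libraries, copies were sought elsewhere in all annotated transcripts. The study describes paired reads, and the placing of 1 read by its mate was not considered. No unique stretch was found in 12 members, of which 10 were at 0 in all 4 libraries and the other 2, Hist1h2ad and Hist1h2ag, had 1 and 4 reads in total. The pairs Hist1h2ao and Hist1h2ap, Hist1h2bq and Hist1h2br, Hist1h4m and Hist1h4n, and Hist2h2aa1 and Hist2h2aa2 have the same coding sequence, and all 8 genes were at 0. Over all genes, 78.2% of the 400 without a unique stretch were at 0, against 54.1% of those with under 50% unique, 19.1% of those with 50% to under 100% and 31.9% of those with 100%. In the same order the members at 0 were 10 of 12, 7 of 35, 1 of 12 and 1 of 8. Levels of members with shared sequence are thus uncertain, and the handling of reads with several matches is not given in the sources used here.

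Shared sequence did not cover all low members. At least 50% of the stretches were unique in 20 members, 16 of them outside the poly(A) list. None of those 16 reached a mean of 1 RPKM, with Hist2h4 the highest at 0.600, and 2 of them were at 0 in all 4 libraries. Hist1h2bc went the other way, with 4.89% of its stretches unique and 36 to 120 reads in each library. The part of library type in these levels was not tested.

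**Figure D3:**
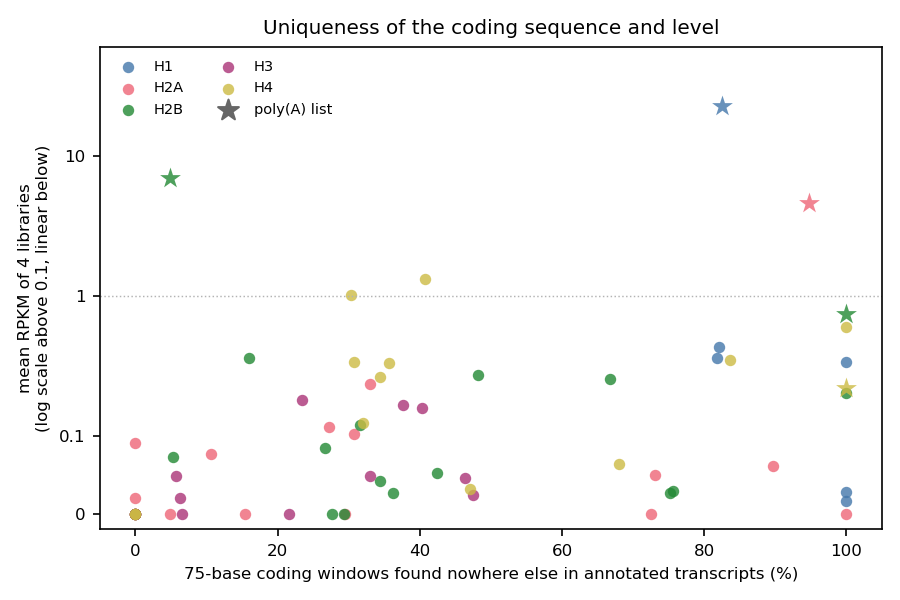
Mean RPKM of the 4 libraries (vertical axis, log scale above 0.1 and linear below) against the percentage of 75-base coding windows found nowhere else in annotated transcripts, for the 67 coding members. Stars mark the poly(A) list and colours the class. Of the 16 circles at 50% or more, none reaches the dotted line at 1 RPKM.

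Genes that handle histones were read at far higher levels in the same libraries. Of 11 genes listed as replication-independent variants, of which H2afx is known to give a stem-loop transcript too, all were above 0 in every library, with a median of 28.7 RPKM. Of 15 genes of histone transcription and 3′ end processing, including Slbp and the histone gene activator Npat, all were above 0 (median 31.7 RPKM), as were all 16 histone chaperones (25.6 RPKM) and all 18 S phase genes (41.2 RPKM). For Slbp, parental cells gave 42.3 RPKM, vector control cells 54.5, exon 3 knockout cells 30.5 and exon 2 knockout cells 50.5. The median was 0.0501 RPKM over the family and 1.41 RPKM over all genes.

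Knockouts were then compared with controls by limma on log2(RPKM + 1), over the 10871 genes with a mean of at least 1 RPKM. None of the 5 members tested passed an adjusted p of 0.05, and none had an unadjusted p under 0.05. The test called 2 of 10871 genes in all (0.0184%), both lower in the knockouts, so the count for the family is what the background gives. Hist1h2bc had the lowest adjusted p of the members, where the log2 change was -0.49 and its SE 0.434 (limma, adjusted p = 0.555). It was -0.19 for Hist1h1c (SE 0.476, adjusted p = 0.852), -0.12 for Hist1h4h, 0.15 for Hist1h4i (1.23 with a pseudocount of 0.1, since it was at 0 in the parental line) and 0.06 for Hist3h2a. Without the vector control, the log2 change of Hist1h1c was 0.69, that of Hist1h2bc 0.14 and that of Hist1h4h 0.24, and without the parental line that of Hist1h4i was -0.84 and that of Hist3h2a -0.19. The sign of each of the 5 therefore turned when 1 of the control libraries was left out.

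No tested member exceeded both controls by 2-fold or more in both knockouts (background 0.267% of 10871 genes) or lay below them by as much (1.73%). Without the filter on level, limma gave 48 members a value, with a smallest adjusted p of 0.328. Of these, 39 were below 0 and 9 above, beside 5974 below and 4897 above among the 10871 genes of the filtered fit. That background lacks genes under a mean of 1 RPKM, and the vector control was the highest library for 36 of the 48. In the unfiltered fit, an unadjusted p under 0.05 was reached by 6 of the 48 (12.5%), against 13.8% of all 15405 genes. All 6 were lower in the knockouts, and 9.68% of all genes had such a p and were lower. Reads in both controls and none in either knockout were found for 9 of the 48 members, against 1.8% of all genes above 0. All 9 lay among the 43 members under a mean of 1 RPKM, where the share over all genes was 6.09%. The reverse held for 0 members and 0.318% of genes. At 1 to a few reads per member and with the deepest library among the controls, these counts are descriptions only.

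Summed by class, the knockouts were lower than the control mean in each of the 5 classes on the log2 scale, although quantile normalization turned the sign for H2A (0.30) and H4 (0.23), and the groups overlapped in 4 of the classes. Summed RPKM was 27.7 ± 21.8 in controls and 20.05 ± 0.745 in knockouts for H1 (SD, n = 2 each), 5.57 ± 1.89 and 5.07 ± 1.57 for H2A, 11.7 ± 7.60 and 6.71 ± 2.22 for H2B, and 5.88 ± 6.14 and 3.42 ± 0.00679 for H4. In class H3 the sums were 0.701 and 1.63 in the controls against 0.207 and 0.217 in the knockouts. This was the only class in which the groups did not overlap, with a log2 change of -2.33 and an exact two-sided permutation p of 0.333, the smallest that 2 against 2 can give. It rested on 2 reads in each knockout, and the mean of log2(RPKM + 1) over the 12 genes gave -0.10. For the other classes the exact permutation p was 0.667 or 1.

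Over the whole family the controls differed from each other (log2 difference 1.66 in summed RPKM) by more than the groups did (-0.33). Scaled to a library total of 1000000 reads (RPM), the family had 12.7 RPM for the parental line (11.5 to 14.02) and 40.7 RPM for the vector control (38.3 to 43.3), and 19.9 RPM after exon 3 editing (18.1 to 21.8) and 17.2 RPM after exon 2 editing (15.5 to 19.0). The vector control thus held 3.20 times the RPM of the parental line (2.85 to 3.61), 2.05 times those of the exon 3 knockout and 2.37 times those of the exon 2 knockout. With median ratio scaling the summed RPKM was 2.87 times that of the parental line, and with quantile normalization 3.23 times. These ratios compare libraries, and 1 culture each does not allow a test between lines. In bulk RNA, a larger share of cells in S phase and more histone RNA per cell cannot be told apart.

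**Figure D4:**
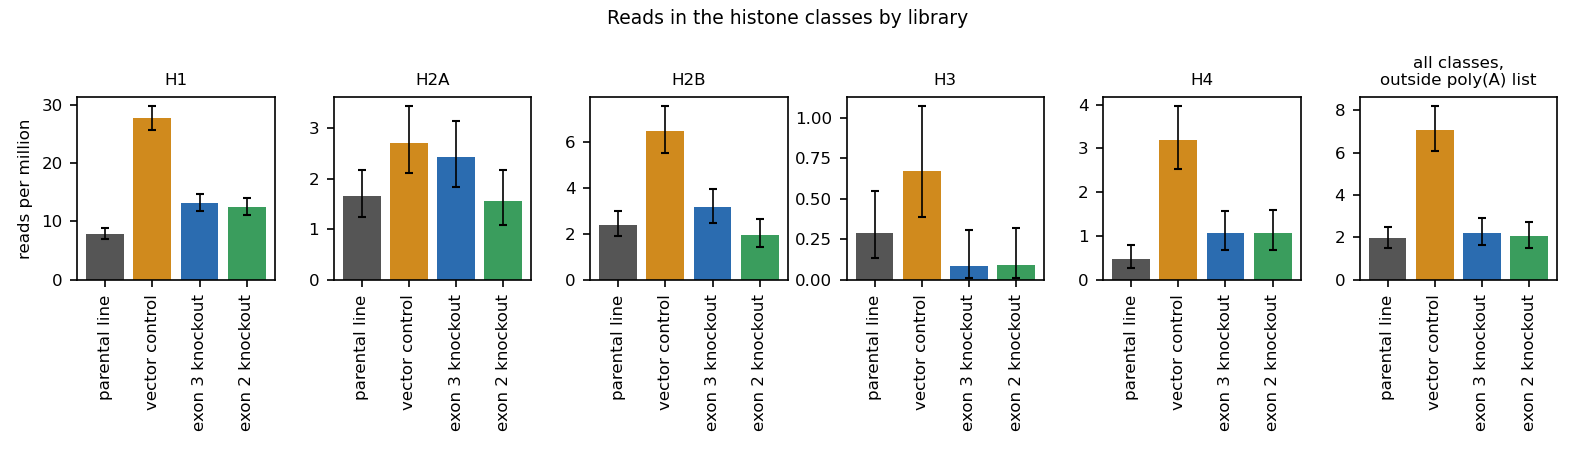
Reads per 1000000 of the library total in each histone class and in the 64 members outside the poly(A) list, for the 4 libraries (bars), with 95% Poisson intervals. The vector control has the highest bar in every panel, and the vertical scale differs between panels.

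The higher level in the vector control was seen inside and outside the poly(A) list. It was 3.13 times the parental line (2.75 to 3.56) over the 5 genes of the list. Of their reads, Hist1h1c gave 666 of 854 in the vector control and 230 of 336 in the parental line. Gene by gene the ratio was 3.56 for Hist1h1c, 2.68 for Hist1h2bc, 1.54 for Hist3h2a and 1.08 for Hist2h2be (0.332 to 3.40). Hist4h4 had no parental read. Over the 64 others the ratio was 3.63 (2.70 to 4.94). These gave 61 reads from parental cells, 180 from vector control cells, 52 after exon 3 editing and 46 after exon 2 editing. By class the ratio was 3.51 for H1 (3.03 to 4.08), 1.63 for H2A (1.12 to 2.39), 2.71 for H2B (2.05 to 3.604), 2.32 for H3 (0.979 to 5.91) and 6.64 for H4 (3.80 to 12.4). The intervals of H4 and H2A did not meet, but Hist3h2a of the poly(A) list made up 85.9% of the summed RPKM of H2A. Outside the list the intervals overlapped, with 6.07 for H4 (3.45 to 11.4) and 2.05 for H2A (0.840 to 5.31). For H3 the interval included 1, so no difference was detectable at 9 and 17 reads.

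Counted by gene, the vector control was the highest library for 36 of the 48 members above 0 (75%, against 35.9% of all genes above 0), and for 36 of them with median ratio scaling and 35 with quantile normalization. It was the highest for 32 of the 43 members between 0 and a mean of 1 RPKM (74.4%, against 34.5% of genes in that range). Among the 5 tested members, 3 were at least 2-fold higher in the vector control than in the parental line on the RPKM + 1 scale (background 3.34%), namely Hist1h1c, Hist1h2bc and Hist1h4i. On plain RPKM 4 were (background 5.12%), the other being Hist1h4h, whose ratio of 2.66 from 13 and 6 reads had an interval of 0.945 to 8.55. The members share library, depth and in part sequence, so these counts are not independent.

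Properties of the libraries that could accompany this were measured beside it. Coding sequences of the family are rich in G and C (median 65.1%). The vector control was the highest library for 16.4% of the 1240 tested genes with at least 60% GC and for 36.6% of all tested genes. The other 4491 genes with a mean between 0 and 1 RPKM held 0.941 times as many RPM in the vector control as in the parental line. All 18 S phase genes were higher in the vector control than in the parental line, as were 14 of 16 chaperones, 12 of 14 tested processing genes, 9 of 10 tested variants and 63.4% of all tested genes. The median log2 difference between these libraries was 0.69 for the S phase genes, 0.45 for the chaperones, 0.46 for the processing genes, 0.30 for the variants and 0.16 for all tested genes. Between the knockouts the median log2 difference (exon 2 minus exon 3) was 0.21 for the S phase genes and 0.05 for all tested genes. For the 5 tested members it was -0.09. Summed RPKM over the family, an unlike measure, gave -0.26. Thymidine kinase Tk1 was chosen after its values were seen. It had 30.7 RPKM in parental cells, 66.5 in vector control cells, 32.6 after exon 3 editing and 59.9 after exon 2 editing. Of the other S phase genes, Mcm2, Mcm3, Mcm5, Rrm2, Cdt1 and E2f1 were lower in the exon 2 than in the exon 3 knockout. The rest were higher, as Tk1 was. The controls also differed in genes unrelated to histones. Col1a1, a fibrillar collagen, was at 670 and 6.93 RPKM in parental and vector control cells (54.3 and 24.2 in the exon 3 and exon 2 knockouts), fibronectin Fn1 at 606 and 164 RPKM (414 and 340) and the keratin Krt18 at 60.2 and 6.10 RPKM (27.3 and 19.1). The part of the share of cells in S phase, or of any other difference between these lines, was not tested.

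The knockouts lay closer to each other than the controls did. The exon 2 knockout held 0.863 times the RPM of the exon 3 knockout over the family (0.753 to 0.990), with 0.950 for H1 (0.805 to 1.12), 0.641 for H2A (0.409 to 0.994), 0.621 for H2B (0.418 to 0.914) and 1.003 for H4 (0.548 to 1.83). As class sums, H2A (by a narrow margin) and H2B were thus lower in the exon 2 knockout by more than counting error, while the intervals of H1 and H4 included 1. For the leading gene of either class alone the interval included 1. It was 0.415 to 1.05 for Hist3h2a (ratio 0.663) and 0.422 to 1.02 for Hist1h2bc (ratio 0.660). None of the 5 tested members was at least 2-fold lower in the exon 2 than in the exon 3 knockout (background 2.43%).

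**Figure D5:**
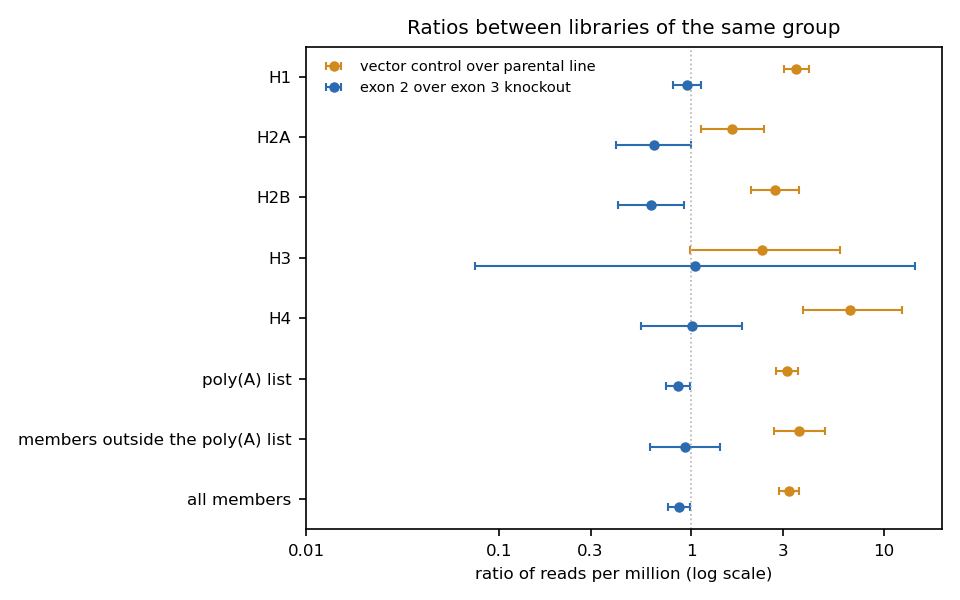
Ratio of RPM between the libraries of one group (horizontal axis, log scale) by class and for the poly(A) list, with exact 95% binomial intervals. The control ratios lie to the right of 1, from 1.63 in H2A to 6.64 in H4, and the knockout ratios lie between 0.621 and 1.04.

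The lists that surround the family held no call by limma either. No gene passed an adjusted p of 0.05 among the 10 tested variants, 14 processing genes, 16 chaperones and 18 S phase genes, with 3, 3, 2 and 0 genes at an unadjusted p under 0.05 (2076 of all 10871). The median log2 change was 0.22 for the variants (8 of 10 above 0), -0.25 for the processing genes (5 of 14 above 0), -0.10 for the chaperones (7 of 16) and -0.03 for the S phase genes (7 of 18), beside -0.08 over all tested genes. For the 5 members the median was -0.12.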

How the data were processed

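The authors deposited RPKM values (reads per kilobase, scaled to the library total) for 21090 genes, with 1 column for each of 4 libraries, and 0 columns were left unmatched. Per the labels, CASAVA 1.8, GSNAP and GRCm38 were used, and the counting rule is not given in the sources used here. The values were brought to whole reads through library totals and gene lengths (tolerance 0.001 reads), which succeeded for 100% of the 15405 genes above 0. The absolute scale rests on coding lengths in GENCODE M21, to which 20963 symbols and all 69 members were matched. Reads gave the intervals, RPM values, floors and the voom alternative, and RPKM the main tests.

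Groups came from the library titles. Genes with a mean of at least 1 RPKM were tested as log2(RPKM + 1) with limma 3.58.1 (R 4.3.3, intensity trend, no covariates, Benjamini-Hochberg adjustment, threshold 0.05), and class sums with an exact two-sided permutation test. The limma step was tested on simulated data. Python 3.11.15, numpy 2.4.6, pandas 2.3.3 and scipy 1.17.1 did the rest. Named members were the 3 with the highest mean in each class, members called or 2-fold apart in all 4 pairs, those with the largest changes, the poly(A) list and 3 testis forms (Hist1h1t, Hist1h2aa and Hist1h2ba). Members, lists and this rule were chosen with earlier results of these data known. Alternatives were a pseudocount of 0.1, median ratio scaling, quantile normalization, other filters, limma without a trend, with a robust prior or with voom on whole reads, a GC and length correction, a 3-fold limit, other class summaries and leaving out each library.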

Additional observations from a re-analysis of the deposited data

Results flagged for a closer look

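For 2 of the named members the knockouts lay on opposite sides of both controls, exon 3 above and exon 2 below. For Hist1h1e the log2 ratio of the exon 3 to the exon 2 knockout was 3.40, from 11 and 1 reads, with 7 and 10 reads in the parental line and vector control. For Hist2h2be it was 0.79, from 9 and 5 reads, with 8 and 7 in the controls. With 1 library per line the differences were not tested. By counting alone, the exon 2 knockout held 0.0950 times the RPM of the exon 3 knockout in Hist1h1e (interval 0.00221 to 0.653) and 0.580 times in Hist2h2be (0.153 to 1.93). The annotation of Hist1h1e overlaps that of Hist1h2be on the same strand.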

How the results depend on the processing

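No member passed the limma threshold under any of the 13 alternatives run. The count over all genes was 2 and became 1 with a pseudocount of 0.1 or quantile normalization, 0 with median ratio scaling, no filter, the GC and length correction or voom on whole reads, 32 with a filter at a mean of 5 RPKM, 285 with a robust prior, and 3 to 788 when single libraries were left out. Where an arm was left with 1 library, it was assumed to vary like the other group. Members 2-fold apart in all pairs numbered 0 to 1 without single libraries, the 1 being Hist1h1c (lower) without the parental line and Hist1h4i (higher) without the vector control, both chosen after their values were seen. Hist1h4i moved from 0.15 to 1.23 with a pseudocount of 0.1 and 1.81 with voom. The GC and length correction moved Hist1h1c to -0.50, Hist1h2bc to -0.88 and Hist1h4h to -0.53, quantile normalization moved Hist1h1c to -0.058, Hist1h2bc to -0.16, Hist1h4i to 0.36 and Hist3h2a to 0.40, and median ratio scaling Hist1h1c to -0.10, Hist1h4h to -0.062 and Hist3h2a to 0.14, with voom at 0.10 for the last. Signs turned for Hist1h4h under quantile normalization (log2 change 0.10), and under the GC and length correction for Hist1h4i (-0.28) and Hist3h2a (-0.34). Without single libraries the log2 change ran from -1.06 to 0.69 for Hist1h1c, -1.11 to 0.14 for Hist1h2bc, -0.47 to 0.24 for Hist1h4h, -0.84 to 1.13 for Hist1h4i and -0.19 to 0.32 for Hist3h2a. Class sums ran from -1.11 to 0.70 for H1, -0.48 to 0.22 for H2A, -1.39 to 0.05 for H2B, -2.94 to -1.73 for H3 and -1.58 to 1.15 for H4. Without its most abundant member H2A gave -1.58, and H3 gave -0.10 as a mean of log2(RPKM + 1). With the GC and length correction the median was -0.014 for the variants, 0.16 for the processing genes and 0.28 for the chaperones. Without single libraries it ran from 0.05 to 0.41 for the variants, -0.47 to -0.024 for the processing genes, -0.31 to 0.22 for the chaperones and -0.42 to 0.30 for the S phase genes. The cause of these shifts was not tested. Sums over members with at least 50% unique windows were chosen after seeing the data. In the 4 classes with such reads in every library they moved by less than the SD between the lines of a group. The log2 change went from -0.21 to -0.97 for H4, where that SD was 1.37. It went from -0.13 to 0.0013 for H2A and from -0.67 to -0.57 for H2B, and stayed at -0.20 for H1. The planned version against a genome was not run, since annotated transcripts alone were used. No paired analysis was possible because the labels carry no replicate numbers.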
